A study of Zea mays with 24 samples.

Results

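The maize genes sh1 (shrunken1, Zm00001d045042) and sus1 (sucrose synthase 1, Zm00001d047253) encode sucrose synthases, and they were followed by identifier across all groups of a root tip expression atlas. They were 2 of the 39510 identifiers measured. Sucrose synthase splits sucrose, with UDP, into fructose and UDP-glucose in a reaction that can run both ways. UDP-glucose is the sugar donor for cellulose and callose and a source for starch, so the enzyme stands at the entry of imported sugar into growing cells. The sh1 gene is best known from the endosperm, where its loss leaves collapsed kernels, and sus1 is active in many maize organs. In maize roots sh1 transcripts are known to accumulate under low oxygen and scarce sugar, and sus1 transcripts under ample sugar.

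RNA sequencing covered 24 libraries, 3 in each of 8 groups, from seedlings taken 7 days after germination and kept at 26 °C, 12 h in light and 12 h in darkness. Epidermis, cortex and stele were wild-type B73 protoplasts, sorted by flow cytometry after 15 min in the dyes syto 40 and syto 81. Endodermis came from a ZmSCR::RFP line and the quiescent center from a ZmWOX5::RFP line, both in a B73/Hi-II background, where each promoter's own activity defined the cells sorted. Wild-type B73 also gave unsorted protoplasts and intact root tips, both without cap, and the dissected root cap. For the endodermis and the quiescent center, the tissue cannot be told apart from the way of sorting or from the genetic background.

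Depth was 21978670 to 50289026 recovered reads per library, with a median of 31133613.0. Reads of sh1 numbered 1739 to 18100 per library and those of sus1 6572 to 96799, so counting error was small for both. They made up 0.00598% to 0.0650% and 0.0272% to 0.348% of the reads of a library. Levels are given as the authors' normalized values, read counts scaled by each library's size factor, which are not corrected for gene length. Since transcript lengths were not used here, the level of one gene is not set against that of the other. Whether the replicates come from separate plants or separate sorts is not in the labels, and the p-values speak only of the spread among these samples, possibly a technical one. The labelled tissues were not checked against marker genes, because the deposited table holds no gene names.

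Epidermis was the group with the most transcript of both genes, and its libraries lay apart from all others. The epidermis is the outer layer of the root and forms the root hairs. The level of sh1 was 14882, 18087 and 18482 in the 3 epidermis libraries. All of them lay above the other 21 libraries, of which the highest was a root cap library at 13390. The level of sus1 was 67996, 57450 and 98840 in the epidermis, and the highest library elsewhere was one of endodermis at 41974. Of all 25555 genes tested, 1.19% had every epidermis library above the other 21.

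**Figure D1:**
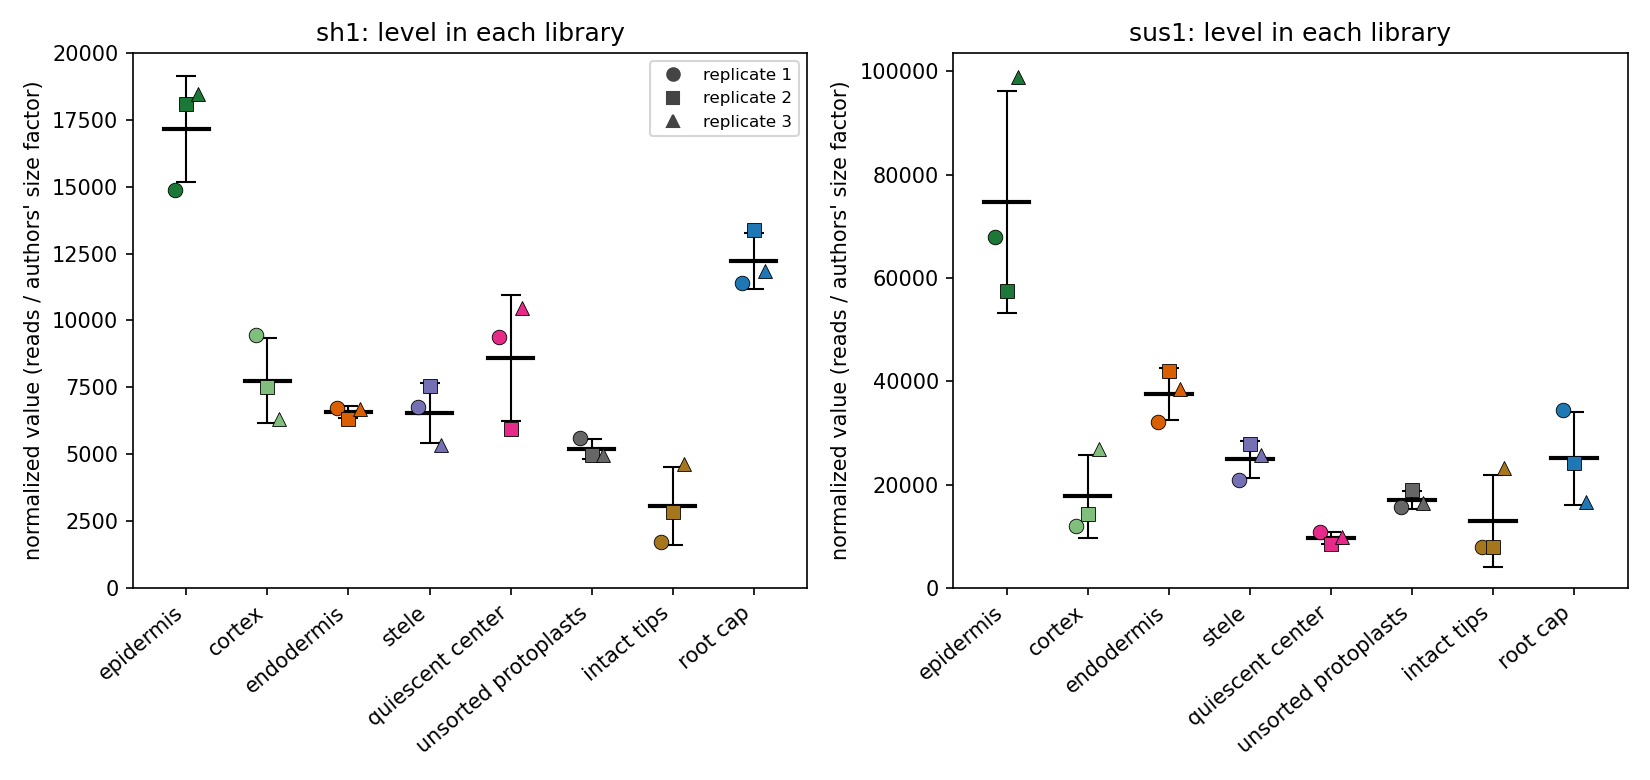
Normalized value of sh1 (left) and sus1 (right) in each of 24 libraries, with 3 per group on the x axis. Points are libraries, with the replicate number as the symbol, and bars are the mean and SD; the 3 epidermis libraries lie above all other libraries in both panels, from 14882 to 18482 for sh1 and from 57450 to 98840 for sus1.

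Against the mean of the other 4 sorted tissues, both genes rose in the epidermis. The difference was 2.36-fold for sh1 (log2 difference 1.24, SE 0.22, limma adjusted p = 4.73e-04) and 3.72-fold for sus1 (log2 difference 1.89, SE 0.29, limma adjusted p = 1.22e-04). A call needed an adjusted p below 0.05 and a difference of at least 1 in size on the log2(value + 1) scale, and 13.5% of all tested genes were called in this comparison. In these bulk samples a different number of cells of a type and a different amount of RNA per cell cannot be told apart.

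Within the 3 tissues sorted by the same dyes from the same line, the epidermis was also the highest. The level of sh1 was 9448, 7493 and 6301 in the cortex and 6752, 7564 and 5340 in the stele. It rose 2.23-fold in the epidermis over the cortex (limma adjusted p = 0.0451) and 2.63-fold over the stele (limma adjusted p = 0.00143). The call against the cortex was lost without any 1 of the 6 libraries compared, when the 2 groups were fitted alone (limma adjusted p = 0.0948), and with no filter on low values (limma adjusted p = 0.0581). For sus1, which reached 11925, 14354 and 26831 in the cortex and 20983, 27871 and 25734 in the stele, the epidermis was 4.38-fold higher than the cortex (limma adjusted p = 0.00659) and 2.95-fold higher than the stele (limma adjusted p = 0.00584). The sus1 call against the cortex was likewise lost with these 2 groups fitted alone (limma adjusted p = 0.0669). Of all genes, 1.02% were called between epidermis and cortex and 14.9% between epidermis and stele.

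The quiescent center separated the genes from each other. Its few, slowly dividing cells are surrounded by the stem cells of the root. The level of sus1 was 10799, 8400 and 9828 in its libraries, below all 12 libraries of the other sorted tissues. For sh1 the values were 9366, 5958 and 10482, overlapping those of cortex, endodermis and stele. Every quiescent center library of sus1 was thus low, while those of sh1 spread by 27.4% of their mean (SD, n = 3).

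Against the mean of the other 4 sorted tissues sus1 fell 3.38-fold in the quiescent center (log2 difference −1.76, SE 0.29, limma adjusted p = 6.13e-05). With weights per group, lowest for the quiescent center at 0.246, the sus1 call was kept nearer the threshold (limma adjusted p = 0.0384). For sh1 the log2 difference was −0.05 (SE 0.22, limma adjusted p = 0.873). Calls were common in this comparison, at 44.6% of all tested genes, and 11.6% of genes had all 3 quiescent center libraries below the other 12. The median log2 difference of all tested genes was −0.49 here and 0.05 after quantile normalization, under which the sh1 difference turned to 0.51 (limma adjusted p = 0.0533) and that of sus1 was −1.18. Relative to the median of all genes, sh1 was therefore on the higher side under both scalings and sus1 on the lower side.

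Between the reporter-sorted tissues, which share the B73/Hi-II background, the same contrast appeared. The level of sus1 was 32175, 41974 and 38438 in the endodermis, the layer that encloses the stele, and no library of the quiescent center reached it. The endodermis was 3.88-fold higher in sus1 than the quiescent center (log2 difference 1.95, SE 0.37, limma adjusted p = 3.00e-04), in a comparison that called 37% of all genes. The level of sh1 was 6739, 6324 and 6677 in the endodermis, and its log2 difference from the quiescent center was −0.35 (SE 0.27, limma adjusted p = 0.334).

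The ratio of sh1 to sus1 within a library does not depend on the library's size factor. Differences of this ratio between groups do not depend on gene length, whereas its own size does. The log2 ratio was highest in the quiescent center, at −0.20 ± 0.29, followed by the root cap at −0.98 ± 0.57 and the cortex at −1.12 ± 0.89 (SD, n = 3). It was lowest in the endodermis, at −2.50 ± 0.24, and the epidermis stood next to it at −2.09 ± 0.39 (SD, n = 3). Unsorted protoplasts, stele and intact tips lay between, at −1.72 ± 0.23, −1.93 ± 0.32 and −1.99 ± 0.46 (SD, n = 3).

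**Figure D2:**
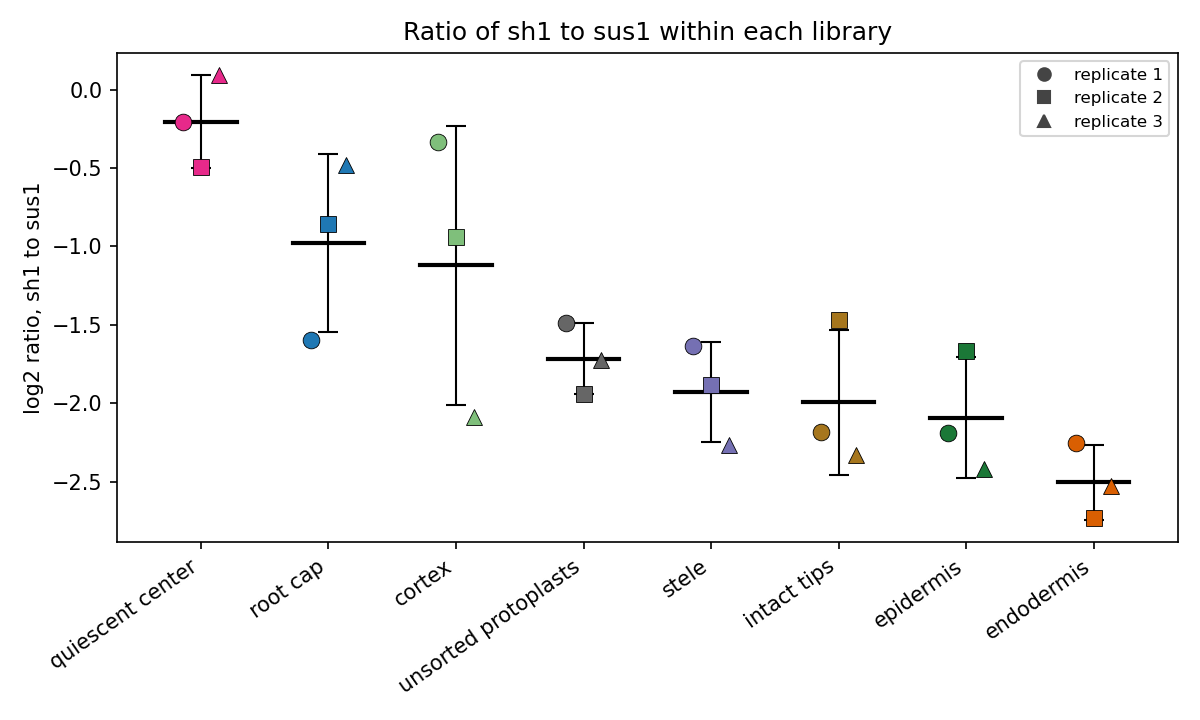
Log2 ratio of the normalized values of sh1 to sus1 in each library, with groups ordered by their mean on the x axis. Points are libraries, with the replicate number as the symbol, and bars are the mean and SD of 3 libraries; the quiescent center is highest at a mean of −0.20, the endodermis lowest at −2.50, and the 3 cortex libraries spread from −0.34 to −2.09.

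Tested against the 12 libraries of the other sorted tissues, the ratio was 3.27-fold higher in the quiescent center (log2 difference 1.71, exact two-sided permutation p = 0.0044, adjusted p = 0.0352 over 8 comparisons). This test takes each library as a separate unit, although the mean ratios of the other tissues differed, from −1.12 in the cortex to −2.50 in the endodermis. All 3 quiescent center libraries lay above 11 of the other 12, and 1 cortex library, at −0.34, lay between them. The endodermis had a 2.25-fold lower ratio (log2 difference −1.17, exact permutation p = 0.0352, adjusted p = 0.141), which did not pass the adjustment. For epidermis, cortex and stele the log2 differences were −0.65, 0.56 and −0.45, with exact permutation p-values of 0.347, 0.409 and 0.484. With 1 quiescent center library left out, 91 splits remain. Their smallest exact permutation p is 0.011, which becomes 0.0879 over 8 comparisons unless another comparison also has a low p. The difference was then 1.56 to 1.86, with an exact permutation p of 0.011 to 0.022. The adjusted exact permutation p was 0.0879 to 0.176, so the call was lost each time.

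Cortex and endodermis, both ground tissue, differed in sus1 but not detectably in sh1. The cortex lay 2.24-fold below the endodermis in sus1 (log2 difference −1.17, SE 0.37, limma adjusted p = 0.0389), where 12.7% of all genes were called and 16.2% had every cortex library below every endodermis library. For sh1 the log2 difference was 0.22 (SE 0.27, limma adjusted p = 0.734). The sus1 call was lost with these groups fitted alone (limma adjusted p = 0.0789), in edgeR on recovered reads (adjusted p = 0.0717) and without any 1 library other than cortex replicate 3, without which the log2 difference was −1.51. The ratio of sh1 to sus1 was 2.61-fold higher in the cortex with no overlap of libraries, at an exact permutation p of 0.1, the smallest that 3 against 3 can give.

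Within the cortex the genes ran in opposite orders, as they also did in the endodermis and in unsorted protoplasts. In the protoplasts this order rests on nearly equal sh1 values, 4959 and 4963. Elsewhere the same library was highest for both genes in epidermis, stele and intact tips, and lowest for both in the quiescent center. Deviations of the 24 libraries from their group means had a Pearson r of 0.35 and a Spearman rho of 0.10. Orders of only 3 libraries were not tested. The cortex library with the highest sh1, at 9448, had the lowest sus1, at 11925. The cortex library with the lowest sh1, at 6301, had the highest sus1, at 26831. That library, cortex replicate 3, was also the shallowest of all, at 21978670 recovered reads, and its part in the spread was not tested. Against the other 4 sorted tissues the cortex log2 difference of sus1 was −0.77 (SE 0.29, limma adjusted p = 0.0974), which was not called. Without cortex replicate 3 it was −1.12 and passed the threshold (limma adjusted p = 0.0336).

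Endodermis and stele, the inner tissues, did not pass the test against the other sorted tissues for either gene. The log2 difference of sus1 was 0.69 in the endodermis (SE 0.29, limma adjusted p = 0.107) and −0.06 in the stele (SE 0.29, limma adjusted p = 0.938). That of sh1 was −0.48 in the endodermis (SE 0.22, limma adjusted p = 0.136) and −0.50 in the stele (SE 0.22, limma adjusted p = 0.157). The shares of all genes called were 16.5% for the endodermis, 8.1% for the stele and 8.28% for the cortex. For sh1 in the cortex the log2 difference was −0.21 (SE 0.22, limma adjusted p = 0.618).

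The dissected root cap, the tissue that covers and protects the tip and holds starch-rich gravity-sensing cells, had more of both transcripts than intact tips from which it had been removed. The level of sh1 was 11413, 13390 and 11865 in the cap, against 1728, 2829 and 4618 in intact tips. Every cap library was above every intact tip library, as was the case for 27.3% of all genes. The level of sus1 was 34460, 24226 and 16536 in the cap, against 7862, 7822 and 23248 in intact tips, so the groups overlapped.

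In this comparison sh1 rose 4.31-fold (log2 difference 2.11, SE 0.27, limma adjusted p = 6.72e-06) and sus1 2.13-fold (log2 difference 1.09, SE 0.37, limma adjusted p = 0.0252), where 32.6% of all genes were called. The sus1 call was lost in edgeR (adjusted p = 0.0999), in DESeq2, where the log2 difference was 0.95, after quantile normalization (limma adjusted p = 0.0720), with these groups fitted alone (limma adjusted p = 0.109) and without any 1 of 4 libraries: root cap replicates 1 and 2, and intact tips replicates 1 and 2. The sh1 call was kept under every alternative tried. The ratio of sh1 to sus1 did not pass its test (log2 difference 1.02, exact permutation p = 0.200).

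Set against the epidermis, the root cap was close in sh1 and lower in sus1. The epidermis was 1.40-fold higher in sh1 (log2 difference 0.49, SE 0.27, limma adjusted p = 0.279) and 3.03-fold higher in sus1 (log2 difference 1.60, SE 0.37, limma adjusted p = 0.00470). Of all genes, 13.6% were called between these groups. Root cap and epidermis differed in collection as well, since the cap was dissected and the epidermis was sorted.

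Protoplasts, cells freed of their walls, were compared with intact tips, where a change on isolation cannot be told apart from a change in the mix of cell types. The level of sh1 was 5614, 4959 and 4963 in unsorted protoplasts, above all 3 intact tip libraries, as for 20.1% of all genes. Its log2 difference was 0.87 (SE 0.27, limma adjusted p = 0.0311), below the size set for a call. The level of sus1 was 15747, 19045 and 16369 in protoplasts, between the values of the intact tip libraries, with a log2 difference of 0.59 (SE 0.37, limma adjusted p = 0.283). Called genes made up 17.9% of all tested genes.

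Both results depended on single libraries. Intact tips replicate 3 held 4618 of sh1 and 23248 of sus1, the highest of its group for each gene. Without it the protoplasts were higher by a log2 difference of 1.22 in sh1 (limma adjusted p = 0.00298) and 1.12 in sus1 (limma adjusted p = 0.0247), and both passed the threshold. Without intact tips replicate 1 the sh1 difference was 0.52 (limma adjusted p = 0.196), and without any 1 protoplast library the sh1 adjusted p in limma was 0.0596 to 0.0875. Without intact tips replicate 1 or 2 the sus1 difference was 0.33. Replicate 3 had 29701354 recovered reads, beside 29080694 and 22538647 in the other intact tip libraries, and the cause of its higher values was not tested.

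**Figure D3:**
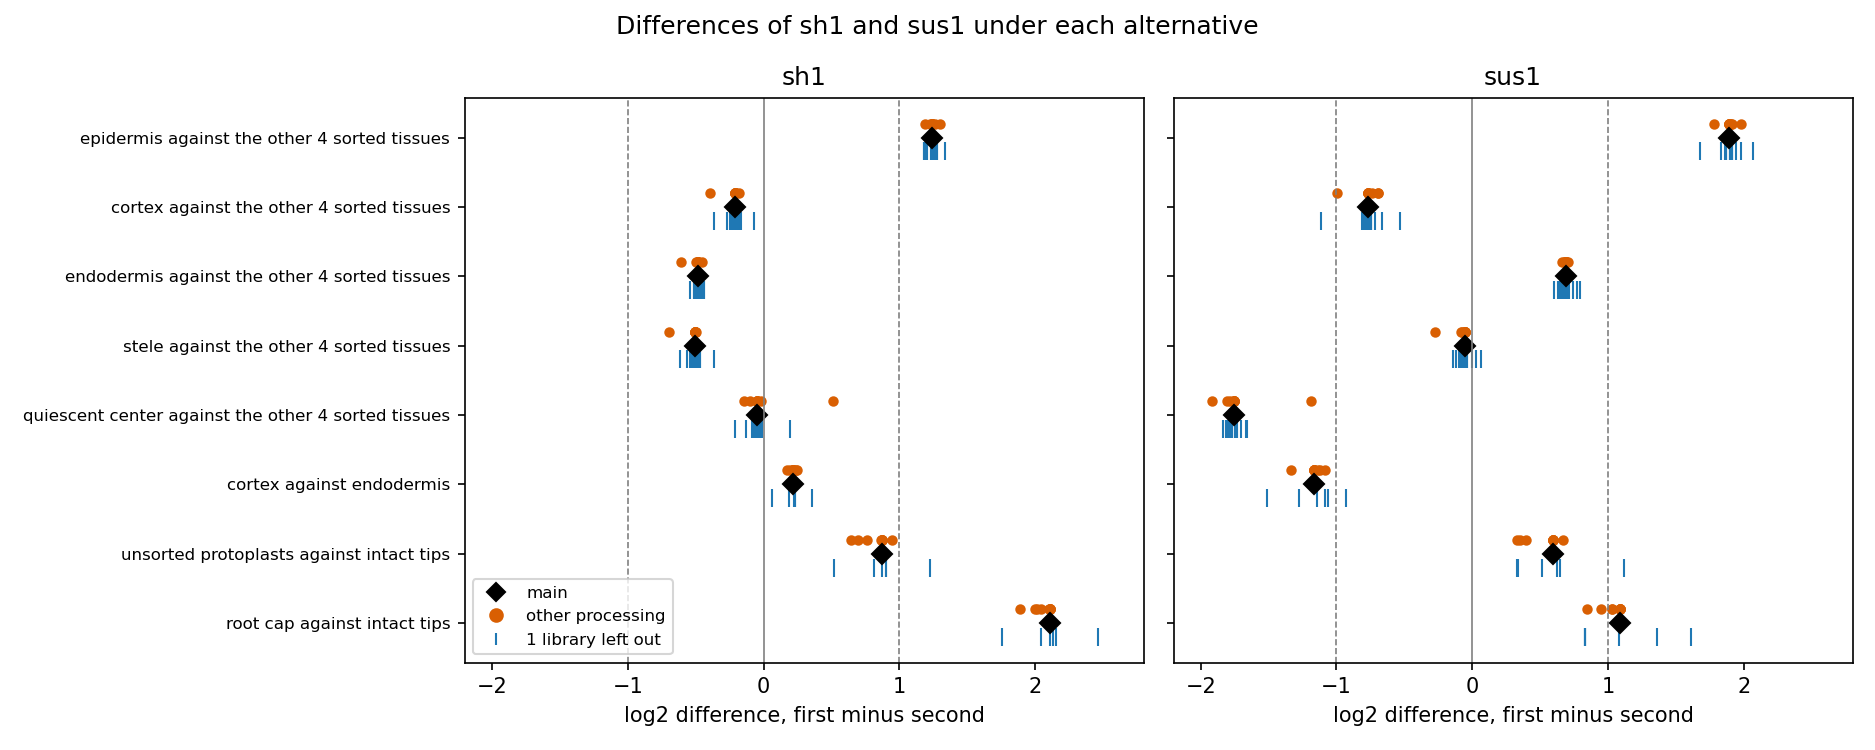
Log2 difference of sh1 (left) and sus1 (right) in 8 comparisons, with the first-named group minus the second on the x axis. Diamonds are the reported values, dots other processing, ticks 1 library left out, and dashed lines the size of 1 set for a call; the epidermis differences stay above 1 for both genes, and that of sus1 in the quiescent center stays below −1.

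Ordered by mean log2 level, the order of sh1 was epidermis, root cap, quiescent center, cortex, endodermis, stele, unsorted protoplasts and intact tips. None of the 7 pairs of neighbours in this order was called, and of these, epidermis with root cap, root cap with quiescent center, and protoplasts with intact tips had libraries that did not overlap. For sus1 the order was epidermis, endodermis, stele, root cap, unsorted protoplasts, cortex, intact tips and quiescent center. Again no neighbours were called, and the libraries of epidermis and endodermis and of endodermis and stele did not overlap. The largest step between neighbours was 0.96 for sus1, from epidermis to endodermis (SE 0.37, limma adjusted p = 0.0647), and 0.87 for sh1, from protoplasts to intact tips.

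Across all 28 pairs of groups, 12 were called for sh1 and 14 for sus1. The share of all genes called ranged from 1.02% to 39.7% over these pairs, with a median of 20.3%. The epidermis was higher in 6 called pairs for each gene, the exceptions being the root cap for sh1 and the endodermis for sus1. Intact tips were lower in 6 called pairs for sh1 and lay below all other 21 libraries, as for 3.66% of all genes. Of these 6 calls, those against endodermis and stele were lost after quantile normalization, at sizes of 0.95 and 0.88, and without intact tips replicate 1, at 0.86 and 0.84. The 15 sorted libraries were above all 3 intact tip libraries in sh1, as for 4.24% of all genes. In sus1 the quiescent center was lower in 4 called pairs, against epidermis, endodermis, stele and root cap, and the endodermis was higher in 4, against cortex, quiescent center, unsorted protoplasts and intact tips. The sh1 call of epidermis against quiescent center (log2 difference 1.03) was lost with weights per group (limma adjusted p = 0.109) and after quantile normalization (limma adjusted p = 0.122), and it slipped below a size of 1 in DESeq2 and without epidermis replicate 2 or 3 or quiescent center replicate 2. The sus1 call of endodermis against unsorted protoplasts (log2 difference 1.13, limma adjusted p = 0.0420) was lost without any 1 of the 6 libraries compared, and its adjusted p was 0.0504 to 0.0604 with no filter, TMM factors, edgeR, weights per group and quantile normalization. With weights per group, the sus1 calls of the quiescent center against stele (limma adjusted p = 0.111) and against root cap (limma adjusted p = 0.231) were lost as well, as both were after quantile normalization. The call against root cap was also lost with these groups fitted alone (limma adjusted p = 0.0618) and without root cap replicate 1 (limma adjusted p = 0.0516). The sus1 call of stele against intact tips (log2 difference 1.13, limma adjusted p = 0.0305) was lost in edgeR (adjusted p = 0.110), in DESeq2 (0.94 in size), after quantile normalization (limma adjusted p = 0.163), with these groups alone (limma adjusted p = 0.0660) and without stele replicate 2 or 3 or intact tips replicate 1 or 2. The sus1 calls of the quiescent center against epidermis and endodermis were kept under every alternative tried.

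**Figure D4:**
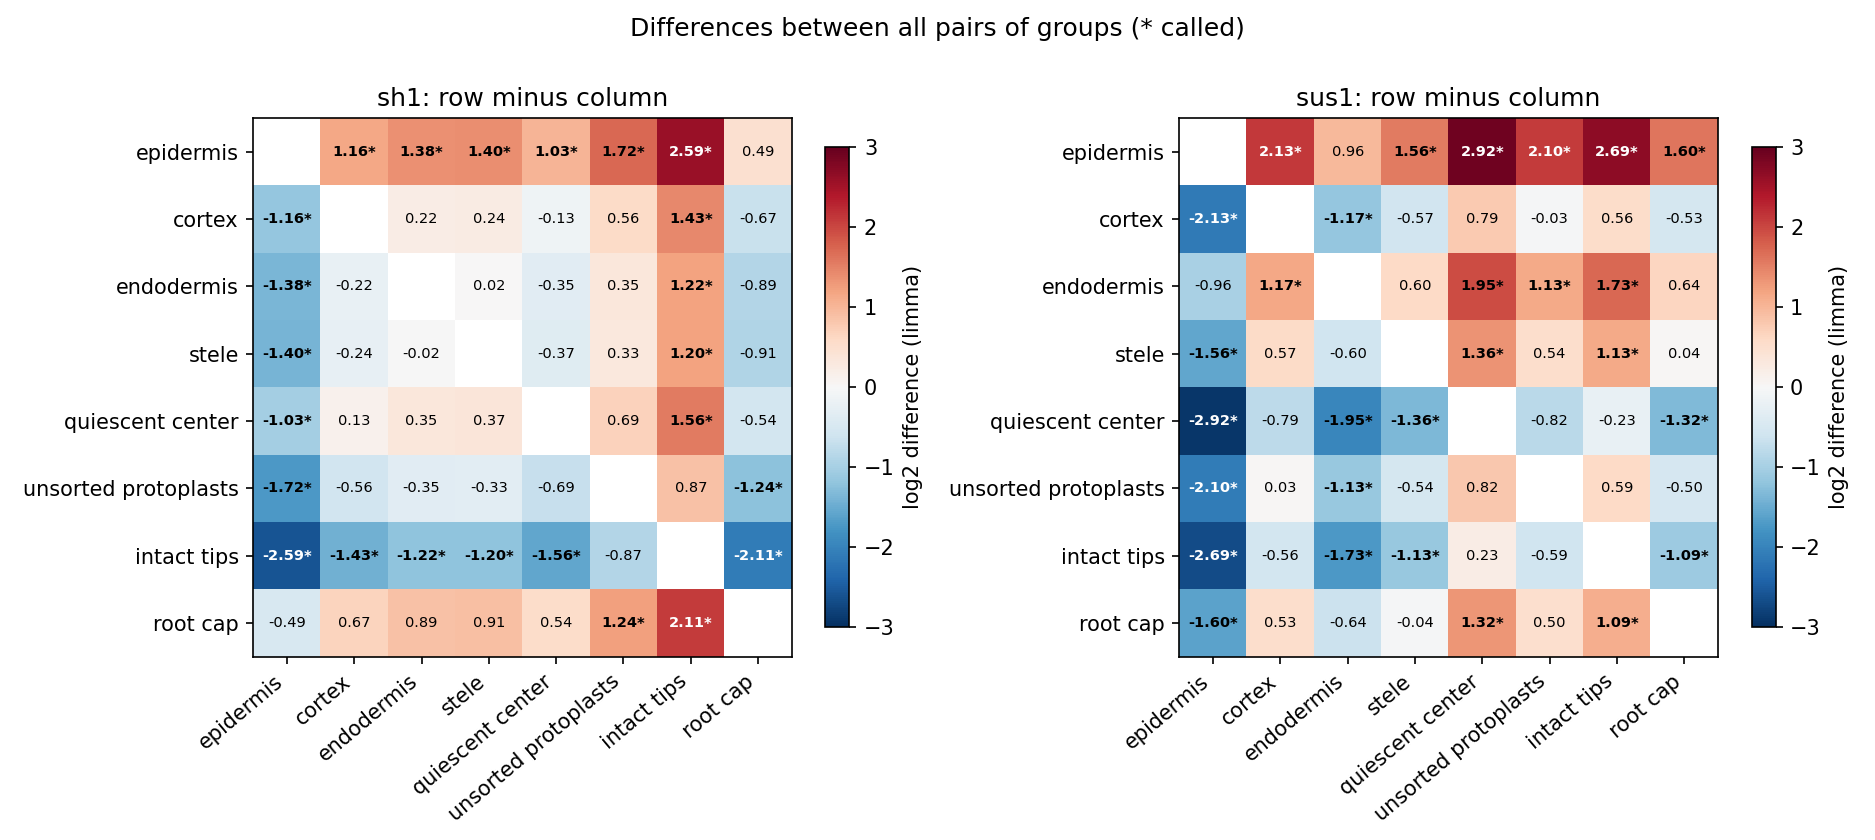
Log2 differences of sh1 (left) and sus1 (right) between all 28 pairs of groups, as row minus column, from limma. An asterisk marks a call (adjusted p below 0.05 and a size of at least 1); the epidermis row is positive throughout for both genes, and the quiescent center row of sus1 is negative throughout, with 4 of its pairs called.

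Both genes varied less than most genes. By geometric means, the highest group was 6.04 times the lowest for sh1 and 7.57 times for sus1, a log2 range of 2.59 and 2.92 beside a median of 3.36 over all tested genes. The SD within groups was 0.33 for sh1 and 0.47 for sus1 on the log2 scale, beside a median of 0.94. The groups accounted for 87.7% of the variance of sh1 and 84.1% of that of sus1, beside a median of 65.9%. High reads give a smaller spread, and genes of the same level were not set apart in these medians.

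Over the 8 group means the log2 levels of sh1 and sus1 had a Pearson r of 0.64 and a Spearman rho of 0.33, where the epidermis is highest for both. Of 24 libraries, 13 deviated from their group mean to the same side for both genes. By the root mean square difference of centred log2 levels over the 24 libraries, sh1 was the gene 47th most like sus1, while sus1 was 898th most like sh1. The genes most like sh1 were Zm00001d035628 (difference 0.46, r = 0.84 over 8 group means) and Zm00001d019348 (difference 0.47, r = 0.85). Those most like sus1 were Zm00001d032761 (difference 0.59, r = 0.83) and Zm00001d043272 (difference 0.60, r = 0.85), beside 0.80 between sh1 and sus1. Genes that vary little are favoured by this measure.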

How the data were processed

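Trimmomatic, kallisto 0.43 and DESeq2 are named in the submitters' processing notes. Build and annotation are not given in the sources used here. Per gene, the authors' deposited table holds a normalized signal, in which the authors scaled gene counts by each library's size factor. In all libraries, 100% of nonzero values came within 0.01 of a whole multiple of the smallest one (0.604 to 1.49), so read numbers were recovered. In 5 libraries this step lay close to 1, but at most 2.24% of values above 100 were themselves whole numbers in any library. As kallisto estimates counts, reads shared by similar genes such as these may be divided between them. The authors' 8 columns of averages were not used.

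Genes with a value of at least 10 in at least 3 libraries (25555) were fitted as log2(value + 1) with limma 3.58.1 in R 4.3.3, with 8 group means, 1 spread per gene and a trended prior. Benjamini-Hochberg adjustment of the p-values ran over all genes of a comparison. Ratios were tested by exact permutation. Alternatives used edgeR 4.0.16 and DESeq2 1.42.0 on recovered reads. The limma fit was tested on simulated data. Replicate numbers follow the titles; a chi-square check found no library deposited as 2 replicates. The members, comparisons and alternatives were chosen with earlier results of these data known. Besides sh1 and sus1, the rule named the 2 genes most like each. The names sh1 and sus1 were given with the identifiers. None of the table's identifiers (0 of 39510) matched the RefSeq table of Zm-B73-REFERENCE-NAM-5.0, so a list of 16 other genes of sucrose use was not analysed here and no sequence is shown.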

Additional observations from a re-analysis of the deposited data

How the results depend on the processing

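Of 336 recomputed differences in the 8 main comparisons of each gene, 314 kept direction and side of the threshold, as did 114 of 117 ratios and 766 of 830 differences in other pairs and in the dye-sorted comparison, which was added after seeing the data. No called difference changed direction. Ratios of 3 against 3 libraries could not be called, as their smallest exact permutation p was 0.1. Only the quiescent center ratio was called. It lost its call without any 1 of its own libraries, where the adjusted exact permutation p was 0.0879 to 0.176. The cause of the changes was not tested, except that leaving out a library or fitting fewer groups leaves fewer libraries by construction.

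For sus1 in cortex against endodermis the difference was −1.12 in edgeR and −1.17 with the groups fitted alone, both short of the threshold. For sus1 in root cap against intact tips it was 1.03 after quantile normalization, 0.85 in edgeR, 0.95 in DESeq2 and 1.09 with the groups alone. Quantile normalization turned sh1 in the quiescent center to 0.51, sus1 in quiescent center against intact tips to 0.13 and sus1 in stele against root cap to −0.18. DESeq2 also turned the last, to −0.012. EdgeR and DESeq2 turned sus1 in cortex against unsorted protoplasts to 0.060 and 0.054.

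With each library left out in turn, sus1 ranged from −1.12 to −0.53 in the cortex, −0.14 to 0.061 in the stele, −1.51 to −0.93 in cortex against endodermis, 0.33 to 1.12 in protoplasts and 0.83 to 1.61 in the root cap. For sh1 the range was −0.21 to 0.20 in the quiescent center and 0.52 to 1.22 in protoplasts, and the ratio in the quiescent center ranged from 1.56 to 1.86. Uncalled pairs that changed sign ranged from −0.37 to 0.032 (sh1, cortex against quiescent center), −0.38 to 0.21 (sus1, cortex against unsorted protoplasts), −0.12 to 0.13 (sh1, endodermis against stele), −0.23 to 0.30 (sus1, stele against root cap) and −0.49 to 0.30 (sus1, quiescent center against intact tips).

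The share of all genes called moved by over 1.5 times for epidermis (22.3% with weights per group, 8.04% without replicate 1), quiescent center (19.3% with weights), stele (16.4% with weights, 3.03% to 5.17% without 1 stele library), cortex (3.03% without replicate 1), endodermis (10.8% without replicate 2) and protoplasts (11.5% without intact tips replicate 2).

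Deviations of same-numbered libraries correlated at −0.0025 on average (84 pairs, of which 14 exceeded 0.1), and the best match was the own number for 7 of 24 libraries, so the numbers were not taken as pairs. With a replicate block the epidermis differences were 1.24 for sh1 and 1.89 for sus1, and of 28 pairs 11 were called for sh1 and 14 for sus1. The call lost was sh1 in epidermis against cortex (limma adjusted p = 0.0676).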

Other observations

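Unsorted protoplasts, which hold the tissues of the tip without cap, lay below the mean of each of the 5 sorted tissues in sh1. Their level was 5179 ± 377 beside 6552 ± 1125 in the stele, the lowest of these (SD, n = 3). Among the 5, only the epidermis was called against protoplasts in sh1. Stele and protoplast libraries overlapped (log2 difference 0.33, SE 0.27, limma adjusted p = 0.548). In sus1 the protoplasts lay at 17054 ± 1752, above the quiescent center at 9676 ± 1207 and near the cortex at 17703 ± 7998 (SD, n = 3). They lay below the stele, endodermis and epidermis. On the log2 scale the cortex minus protoplast difference was −0.032, and cortex libraries lay on both sides of the protoplast libraries. Against unsorted protoplasts of the same line, the mean of the 3 dye-sorted tissues was higher by a log2 difference of 0.87 in sh1 (SE 0.22, limma adjusted p = 0.0172) and of 0.87 in sus1 (SE 0.30, limma adjusted p = 0.0640). Neither was called, and 10.3% of all genes were. The median log2 difference of all tested genes was 0.23 in this comparison and −0.068 after quantile normalization. This comparison was added after seeing the data and weights the 3 tissues equally, which the mixture in unsorted protoplasts need not do.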
